A study of Mus musculus with 12 samples.

Results

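The genes described here are 10 members of the 2 main protein-folding stress responses of the cell, read in the left ventricle (LV) of adult mouse offspring. The 5 cytosolic members were *Hspa1a*, *Hspa1b*, *Hsph1*, *Dnajb1* and *Hsp90aa1*, and the 5 members tied to the endoplasmic reticulum (ER) were *Hspa5*, *Xbp1*, *Ddit3*, *Atf4* and *Pdia4*. They were chosen by name, with earlier results of these data known, and found by their Ensembl identifiers; no threshold on a measured value was used. All 10 were among the 46983 genes of the count files and all 10 passed the filter on low counts, together with 14706 genes in all.

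The study crossed *Hif1a* haploinsufficiency with maternal diabetes in FVB mice, and the libraries came from offspring aged 12 weeks. Females without the *Hif1a* mutation, either non-diabetic or made diabetic with streptozotocin, were mated with *Hif1a*+/- males that carry a global null allele (Hif1a tm1jhu), so that every cell type of the heart was heterozygous in the mutant offspring. The 4 groups were non-diabetic *Wt*, diabetes-exposed *Wt*, non-diabetic *Hif1a*+/- and diabetes-exposed *Hif1a*+/-, with 3 LVs in each, taken from several litters. Streptozotocin was given to the dams and not to the offspring. In the study, animals aged 12 weeks were examined by echocardiography under isoflurane on a heated table. Whether the sequenced animals were among them is not stated. Samples are named here by the animal number in their title.

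Cells answer unfolded protein in the cytosol and in the ER with separate programmes. In the cytosol, the transcription factor HSF1 is held inactive by chaperones and, once released, binds heat shock elements and switches on inducible chaperone genes within minutes of heat, ischaemia or proteotoxic stress. In the ER, the sensors IRE1, ATF6 and PERK start the unfolded protein response (UPR), in which spliced XBP1 and cleaved ATF6 raise ER chaperones, and ATF4 raises amino acid genes and the pro-apoptotic factor CHOP, which *Ddit3* encodes. Cardiomyocytes use both programmes after ischaemia and under pressure load.

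Reads on genes numbered 16132442 in the shallowest library and 39812939 in the deepest. Levels are given as CPM, the reads of a gene scaled to a common library total, after TMM normalization for the composition of the libraries. Of the 12 libraries, 2 stood apart. The labels give all animals as female and the design text gives them as male. In 11 samples the summed level of 4 Y-linked genes was above *Xist*, and in the remaining one, animal 72 of the diabetes-exposed *Hif1a*+/- group, it was below. Animal 25 of the non-diabetic *Wt* group carried 2236 CPM of the haemoglobin gene *Hba-a1*, against 56.9 to 516 CPM in the other 11. *Hif1a* itself was read at 55.7 to 71.8 CPM in non-diabetic *Wt* and at 78.8 to 89.4 CPM in non-diabetic *Hif1a*+/-. The reads come from the 3′ end of transcripts, and the null allele removes an exon near the 5′ end, so this level does not check the genotype.

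*Hspa1a* and *Hspa1b* encode inducible HSP70, the chaperone whose transcripts rise most after heat shock. They are intronless neighbours on the minus strand of chromosome 17 (GRCm38), *Hspa1b* at 34956436 to 34959238 and *Hspa1a* at 34969190 to 34972156. *Hspa1a* was read at 3.36, 9.82 and 0.572 CPM in non-diabetic *Wt* animals 25, 42 and 89. In diabetes-exposed *Wt* it was 13.0, 1.40 and 0.114 CPM in animals 50, 7 and 80, the last of these a count of only 2 reads. In non-diabetic *Hif1a*+/- animals 14, 32 and 44 it was 0.351, 1.465 and 7.64 CPM, and in diabetes-exposed *Hif1a*+/- animals 66, 72 and 77 it was 2.62, 0.660 and 0.353 CPM. Animals 42, 50 and 44, which belong to 3 different groups, were thus far above the other 9, and the groups overlapped throughout.

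*Hspa1b* followed the same animals. It was 10.1, 30.5 and 1.103 CPM in non-diabetic *Wt* and 34.7, 3.37 and 1.83 CPM in diabetes-exposed *Wt*, with the animals in the order given above. It was 1.44, 3.66 and 23.8 CPM in non-diabetic *Hif1a*+/- and 5.16, 1.36 and 1.72 CPM in diabetes-exposed *Hif1a*+/-. From the lowest to the highest sample, 27 reads and 752 reads, the level of *Hspa1b* differed 31.4-fold. Its spread over the 12 samples, an SD of 1.53 on the log2(CPM + 1) scale, was above that of nearly all genes tested, whose median SD was 0.16.

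The promoters of the pair are nearly identical, and for this reason the 150 bases before each annotated start are shown (RefSeq, GRCm38.p6, minus strand, chr17:34972157-34972306 for *Hspa1a* and chr17:34959239-34959388 for *Hspa1b*). Capitals mark a pair of heat shock units (GAANNTTC or TTCNNGAA, searched on both strands).
Hspa1a: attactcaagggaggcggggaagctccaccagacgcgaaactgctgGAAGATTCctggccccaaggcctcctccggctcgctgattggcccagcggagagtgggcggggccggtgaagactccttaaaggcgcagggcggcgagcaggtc
Hspa1b: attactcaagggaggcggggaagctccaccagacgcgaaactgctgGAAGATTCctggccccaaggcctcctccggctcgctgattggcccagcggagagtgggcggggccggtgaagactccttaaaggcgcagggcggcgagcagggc
Over 250 bases before and 50 bases after the start the windows differed at 4 of 300 positions, C44T, T47C, T249G and C276T (the base of *Hspa1a*, the position from 1 at the 5′ end of the window, the base of *Hspa1b*).

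The marked unit pair begins 104 bases before the start in both genes. It occurred in 15.1% of 32851 promoter windows of the same length, and this shorter motif was added after the sequences had been seen. The full heat shock element of 3 alternating units with 2 bases between them was found in 0.603% of the windows and in *Hsph1* alone among the 9 members with a window (*Hsp90aa1* had none).

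Because the coding sequences are nearly alike, reads could be placed wrongly within the pair. Of all stretches of 75 bases, the read length, 52.7% of the *Hspa1a* transcript and 55.8% of the *Hspa1b* transcript occur in the other gene. None of the 426 stretches in the last 500 bases of either transcript does, which is the end of the transcript that 3′-seq reads. *Hspa1a* took between 17.0% and 34.1% of the reads of the pair in 11 samples. In animal 80 it took 2 of 34 reads, 5.9% (exact binomial 95% interval 0.7% to 19.7%, which covers counting error only). The gene Gm20481 is annotated across *Hspa1a* on the opposite strand, and the strand setting of the counting is not given in the sources used here, so reads from it cannot be told apart.

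*Hsph1* encodes HSP110, which exchanges the nucleotide on HSP70 and is itself heat-inducible. It lies on chromosome 5 at 149614287 to 149636376, minus strand. Its promoter window held the full heat shock element from 37 to 49 bases after 1 RefSeq start, and from 16 to 28 bases after another. These starts are not the end of the gene coordinates given above. The stretch is shown here with the element in capitals (RefSeq, GRCm38.p6, chr5:149636287-149636306, minus strand).
Hsph1: tgcagaTTCTGGAAAGTTCt
*Hsph1* was 170, 173 and 92.3 CPM in non-diabetic *Wt* and 213, 172 and 83.0 CPM in diabetes-exposed *Wt*. It was 96.6, 116 and 201 CPM in non-diabetic *Hif1a*+/- and 153, 118 and 89.1 CPM in diabetes-exposed *Hif1a*+/-. The range was 2.56-fold, with animals 50 and 44 at the top and animal 80 at the bottom.

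*Dnajb1* encodes HSP40, the co-chaperone that loads clients on HSP70 and stimulates its ATPase. It lies on the plus strand of chromosome 8 at 83608193 to 83612653. It was 36.4, 67.3 and 29.0 CPM in non-diabetic *Wt*, 49.8, 31.3 and 20.6 CPM in diabetes-exposed *Wt*, and 21.6, 27.7 and 63.5 CPM in non-diabetic *Hif1a*+/-. The 3 diabetes-exposed *Hif1a*+/- animals had 20.4, 19.6 and 20.8 CPM. The group was narrow, 20.3 ± 0.602 CPM (SD, n = 3), and it lay below every non-diabetic animal of both genotypes, while animal 80 of the diabetes-exposed *Wt* group fell within it.

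*Hsp90aa1*, the stress-inducible form of HSP90, keeps kinases and steroid receptors in a foldable state. It lies on the minus strand of chromosome 12 at 110690605 to 110702728. Its level was 192, 229 and 126 CPM in non-diabetic *Wt*, 338, 242 and 98.0 CPM in diabetes-exposed *Wt*, 115, 156 and 234 CPM in non-diabetic *Hif1a*+/- and 181, 128 and 107 CPM in diabetes-exposed *Hif1a*+/-. Animal 50 was again highest and animal 80 lowest, 3.44-fold apart.

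**Figure D1:**
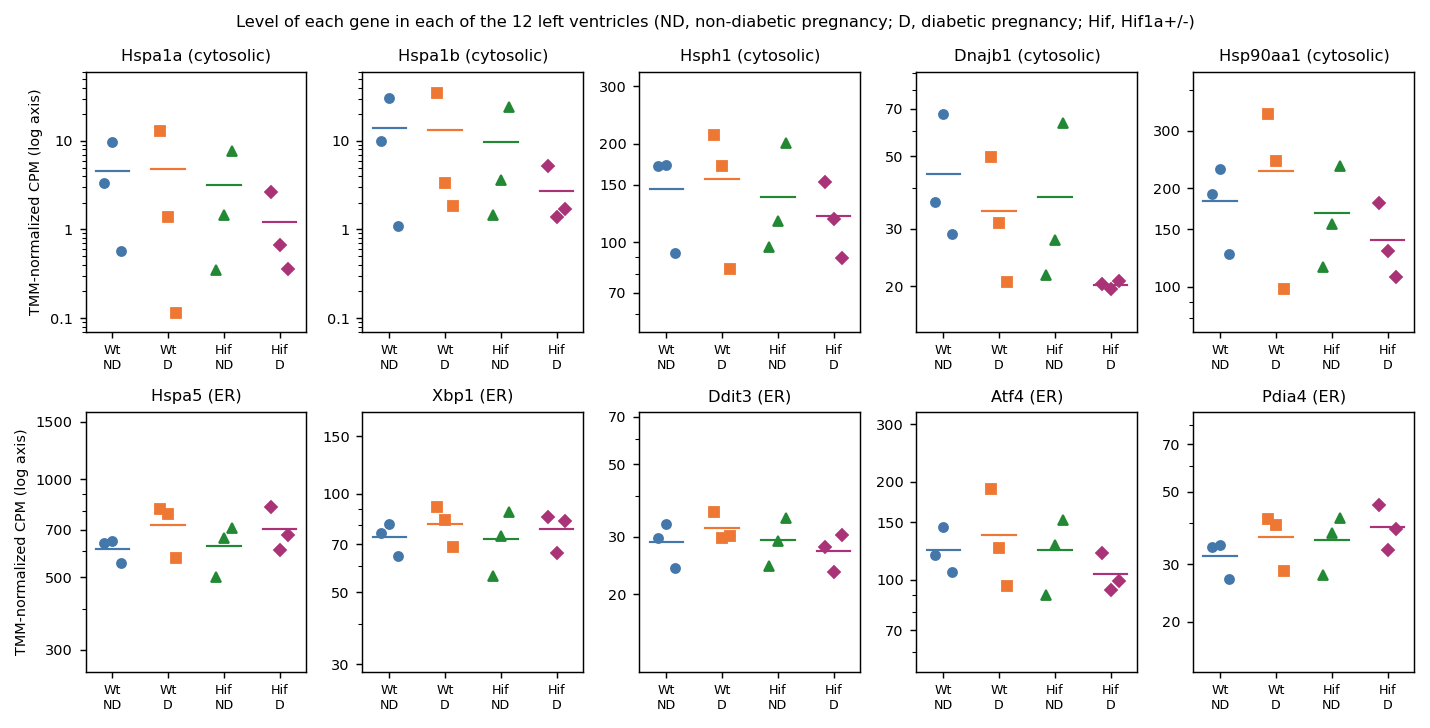
Level of each of the 10 genes in each LV (TMM-normalized CPM, log axis), by group, with 1 point per animal and a line at the mean of the 3; ND and D mark non-diabetic and diabetic pregnancy. *Hspa1a* and *Hspa1b* share 1 wide axis, and the other 8 panels each span the same fold range, so that the wide scatter of the cytosolic genes in 3 groups (top row) can be set against the narrow scatter of the ER genes (bottom row), where for example *Hspa5* lies between 503 and 821 CPM.

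The ER members varied less, with an SD of log2(CPM + 1) of 0.19 to 0.32 against 0.48 to 1.53 for the cytosolic members. *Hspa5* encodes BiP, the HSP70 of the ER lumen that also restrains the 3 sensors. It lies on chromosome 2 at 34771970 to 34777547, plus strand, and its window held the ER stress element (CCAAT, 9 bases, CCACG), the binding site of ATF6 and XBP1 with NF-Y, from 65 to 47 bases before the RefSeq start. The element, in capitals, was found in 0.119% of all windows and in no other member (RefSeq, GRCm38.p6, chr2:34772020-34772049, plus strand).
Hspa5: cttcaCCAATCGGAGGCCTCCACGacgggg
*Hspa5* was 636, 644 and 554 CPM in non-diabetic *Wt*, 809, 781 and 574 CPM in diabetes-exposed *Wt*, 503, 662 and 709 CPM in non-diabetic *Hif1a*+/- and 821, 607 and 675 CPM in diabetes-exposed *Hif1a*+/-. The whole range was 1.63-fold, and the groups overlapped.

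*Pdia4*, a protein disulphide isomerase of the ER lumen (chromosome 6, 47796141 to 47813430, minus strand), was 33.8, 34.4 and 27.1 CPM in non-diabetic *Wt* and 41.3, 39.4 and 28.7 CPM in diabetes-exposed *Wt*. It was 27.9, 37.5 and 41.6 CPM in non-diabetic *Hif1a*+/- and 45.6, 33.1 and 38.6 CPM in diabetes-exposed *Hif1a*+/-. It followed *Hspa5* closely, with animal 66 highest in both. The microRNA gene Mir704 lies within *Pdia4* on the same strand.

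*Xbp1* encodes the transcription factor of the IRE1 branch, and its gene level does not tell the spliced form from the unspliced one. On chromosome 11 (5520659 to 5525893, plus strand), it was 75.7, 80.8 and 64.6 CPM in non-diabetic *Wt*, 90.8, 83.2 and 68.6 CPM in diabetes-exposed *Wt*, 55.9, 74.2 and 88.2 CPM in non-diabetic *Hif1a*+/- and 85.1, 65.9 and 82.7 CPM in diabetes-exposed *Hif1a*+/-. The range was 1.62-fold from animal 14 to animal 50.

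*Atf4* encodes the factor translated when PERK or another kinase phosphorylates eIF2alpha, so that its RNA reports only part of its control. It lies on chromosome 15 at 80255184 to 80257541, plus strand. It was 119, 145 and 106 CPM in non-diabetic *Wt*, 190, 125 and 95.6 CPM in diabetes-exposed *Wt*, 90.0, 128 and 152 CPM in non-diabetic *Hif1a*+/- and 121, 93.0 and 99.0 CPM in diabetes-exposed *Hif1a*+/-. Its range of 2.11-fold was the widest of the ER members, with animals 50, 44 and 42 on top, the same 3 as for *Hspa1a*.

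*Ddit3* encodes CHOP, which promotes apoptosis under lasting ER stress. It lies on chromosome 10 at 127290774 to 127296288, plus strand, and overlaps Mars and Gm4189 on the other strand. Its level was 29.8, 32.9 and 24.1 CPM in non-diabetic *Wt*, 35.8, 29.7 and 30.2 CPM in diabetes-exposed *Wt*, 24.5, 29.1 and 34.2 CPM in non-diabetic *Hif1a*+/- and 27.9, 23.5 and 30.3 CPM in diabetes-exposed *Hif1a*+/-. This was the narrowest range of the 10 genes, 1.53-fold. The C/EBP-ATF element (TGATGNAAT, 0.965% of windows) and the UPR element (TGACGTGG, 0.676% of windows) were found in no member's window. The windows reach only 250 bases before and 50 bases after the start. Sites farther away, or differing from these patterns, were not searched, so a member may still carry either element.

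The same animals stood high or low for gene after gene. Animal 50 was among the 3 highest of the 12 samples for all 10 members. Animal 44 was among them for the 5 cytosolic and for 4 ER members, and animal 42 for 4 cytosolic and 2 ER members. At the other end, animal 14 was among the 3 lowest for all 5 ER members and for 3 cytosolic members, and animal 80 for 4 cytosolic and 3 ER members. Animals 50, 44 and 42 were 1 from each group other than diabetes-exposed *Hif1a*+/-. Of this last group, animal 66 was among the 3 highest for 3 ER members, and no animal was so for any cytosolic member.

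**Figure D2:**
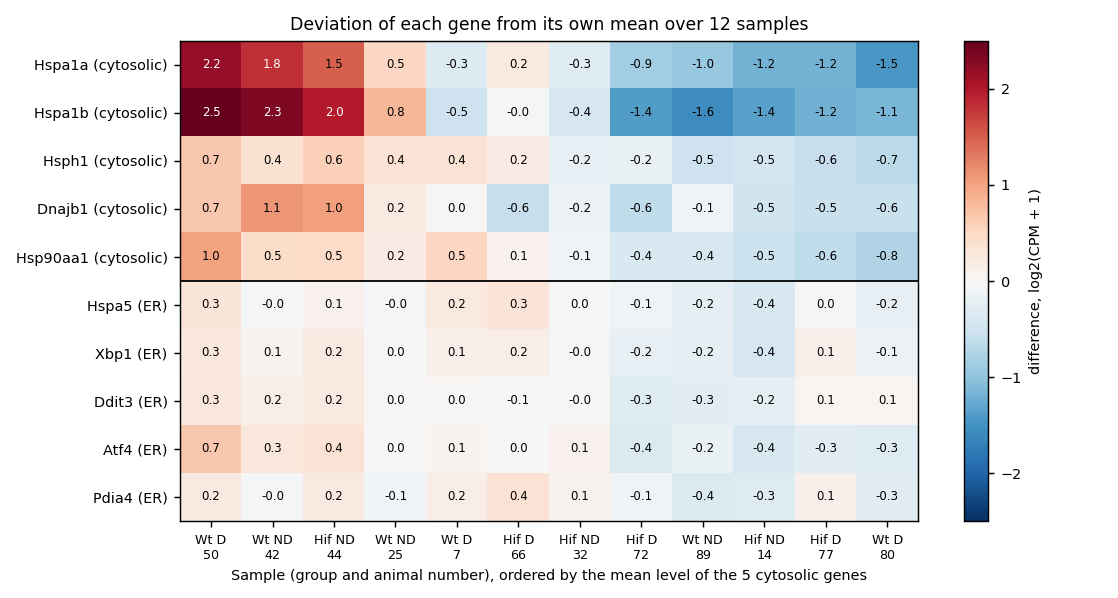
Deviation of each gene in each sample from its own mean over the 12 samples, as a difference of log2(CPM + 1), with red above and blue below the mean; samples run from the highest to the lowest mean of the 5 cytosolic genes and carry group and animal number. Animals 50, 42 and 44, from 3 groups, are red across all 5 cytosolic rows, and the ER rows are paler, with animal 66 among the highest for *Hspa5*, *Xbp1* and *Pdia4*.

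For 9 of the 10 members the share of the variance that lay between groups was below the median of all tested genes. That share had a median of 15.5% over the members and 25.2% over all 14706 genes tested. The exception was *Dnajb1* at 36.5%. The biological coefficient of variation within groups was 103% for *Hspa1a*, 93.6% for *Hspa1b*, 33.4% for *Dnajb1*, 31.8% for *Hsp90aa1* and 29.6% for *Hsph1*, against a median of 12.5% over all genes. For *Atf4* it was 20%, and for *Hspa5*, *Xbp1*, *Ddit3* and *Pdia4* it was 13.0% to 15.2%.

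Over the 12 samples the cytosolic members rose and fell together. The correlations are descriptions of log2(CPM + 1) over 12 samples that share 4 groups. The 10 pairs of cytosolic genes had Pearson r between 0.76 and 0.98, with a median of 0.89 and a median Spearman rho of 0.78. *Hspa1a* and *Hspa1b* had r = 0.98 (rho = 0.87), and of 14705 genes *Hspa1b* was the one most like *Hspa1a*. *Hsph1* and *Hsp90aa1* had r = 0.96 (rho = 0.97), and *Hsp90aa1* was the gene most like *Hsph1*. Without the 2 samples farthest from the median, the cytosolic pairs had r between 0.70 and 0.96. With each group's mean removed, their median r was 0.91, so that the shared order of animals was present within groups. This order was not particular to the cytosolic genes. The 25 pairs of a cytosolic and an ER gene had r between 0.28 and 0.93. Their median was 0.70, and 0.82 with group means removed. The 10 pairs of ER genes had a median r of 0.79, and 0.89 with group means removed.

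Within the ER set, *Hspa5*, *Xbp1* and *Pdia4* formed a close block. The r was 0.94 for *Hspa5* and *Pdia4*, 0.91 for *Hspa5* and *Xbp1*, and 0.88 for *Xbp1* and *Pdia4*. *Atf4* had r = 0.83 to 0.93 with the 5 cytosolic genes, highest with *Hspa1a* and *Hsp90aa1*, against 0.78 with *Xbp1*, 0.69 with *Hspa5* and 0.62 with *Pdia4*. With group means removed the gap nearly closed, to 0.85 to 0.95 with the cytosolic genes and 0.88 to 0.89 with the block. Against the mean of the 5 cytosolic genes *Atf4* had r = 0.93 (rho = 0.85, and r = 0.91 without the 2 farthest samples), and *Hspa5* had r = 0.58 (rho = 0.57, and r = 0.57 without them). *Dnajb1* was the cytosolic gene least like the ER set, with r = 0.30 with *Hspa5* and 0.28 with *Pdia4*. Once group means were removed these became 0.71 and 0.75.

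**Figure D3:**
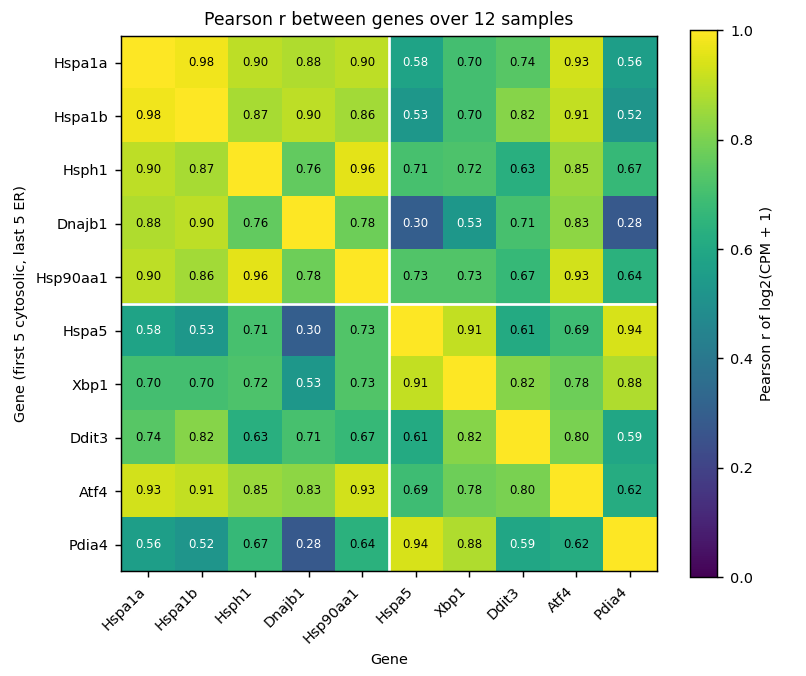
Pearson r of log2(CPM + 1) over the 12 samples for each pair of the 10 genes, from 0 (dark) to 1 (light), with the 5 cytosolic genes first and the 5 ER genes last. The cytosolic block (0.76 to 0.98) and the block of *Hspa5*, *Xbp1* and *Pdia4* (0.88 to 0.94) are light, *Atf4* is lightest in the cytosolic columns, and the lowest value is 0.28 for *Dnajb1* and *Pdia4*.

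The mean of log2(CPM + 1) over the 5 cytosolic genes ran from 3.82 in animal 80 to 6.16 in animal 50, a span of 2.33. The ER mean ran from 6.17 in animal 14 to 6.87 in animal 50, a span of 0.71. Levels of different genes were not compared through these means, only the samples. The cytosolic mean was 5.05 ± 0.97 (SD, n = 3) in non-diabetic *Wt*, 4.91 ± 1.17 in diabetes-exposed *Wt*, 4.77 ± 0.99 in non-diabetic *Hif1a*+/- and 4.23 ± 0.44 in diabetes-exposed *Hif1a*+/-. Every neighbouring pair in this order differed by less than the SD of either group except the last, whose difference was below the larger SD. The ER mean was 6.47 ± 0.18, 6.62 ± 0.26, 6.49 ± 0.30 and 6.51 ± 0.19 in the same order of groups, all within 1 SD of each other. The difference between the cytosolic and the ER mean was lowest in diabetes-exposed *Hif1a*+/- (-2.28 ± 0.34), where animal 77 had -2.63, and animal 80 of the diabetes-exposed *Wt* group had -2.52.

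**Figure D4:**
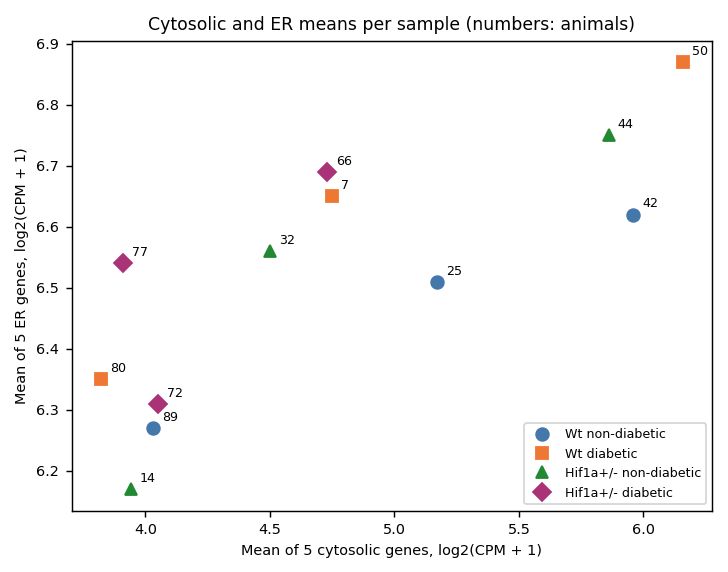
Mean log2(CPM + 1) of the 5 ER genes against that of the 5 cytosolic genes in each sample, with animal numbers and a symbol for each group. The cytosolic mean spans 3.82 to 6.16 and the ER mean 6.17 to 6.87, 3 groups each hold 1 animal at the right, and the 3 diabetes-exposed *Hif1a*+/- animals lie at or left of 4.73.

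The groups were compared in 9 contrasts with edgeR's quasi-likelihood test on the counts, with Benjamini-Hochberg adjustment over all 14706 genes and a threshold of 0.1 for the adjusted p. The p-values rest on a spread within groups that was estimated over all 4 groups of 3 animals together, not over the compared groups alone. Comparisons that share a group are not independent. In each of the 9 contrasts the number of members called was 0 of 10, and so was the number of all genes, 0.0% of those tested. Neither DESeq2 nor limma-voom called any member, though DESeq2 called up to 203 other genes and limma-voom up to 937. At an unadjusted p under 0.05, *Dnajb1* alone among the members was found, in 3 contrasts, where 1302, 1764 and 1660 of the 14706 genes were under 0.05 as well. A share of 1 in 10 members was thus near that of all genes.

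*Dnajb1* was 44.2 ± 20.3 CPM (SD, n = 3) in non-diabetic *Wt* and 20.3 CPM in diabetes-exposed *Hif1a*+/-, a log2 fold change of -1.13 ± 0.40 (SE). The unadjusted p was 0.0144 and the adjusted p 0.502 in edgeR's quasi-likelihood test with Benjamini-Hochberg adjustment. The 3 animals of the one group lay below the 3 of the other, as did 1 of the 10 members and 14.6% of all genes in either direction in this comparison. Without animal 42 the log2 fold change was -0.68, and without animal 72 it was -1.1.

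Against non-diabetic *Hif1a*+/- (37.6 ± 22.6 CPM), the log2 fold change of *Dnajb1* was -0.89 ± 0.40 (SE), with an unadjusted p of 0.0447 and an adjusted p of 0.412 by edgeR. The 3 animals again lay below the other 3, and 24.4% of all genes did not overlap in this comparison. Without animal 44 the log2 fold change was -0.27, so that most of its size came from that animal. For 6 diabetes-exposed against 6 non-diabetic animals, averaged over genotypes, edgeR gave *Dnajb1* a log2 fold change of -0.64 ± 0.28 (SE), an unadjusted p of 0.0414 and an adjusted p of 0.43. Without animal 44 this was -0.32.

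In the other contrasts the member with the smallest p was well short of the threshold. In diabetes-exposed against non-diabetic *Wt* it was *Hspa5*, with a log2 fold change of 0.24 ± 0.16 (SE) and an adjusted p of 1.0 by edgeR. It was 0.15 without animal 50 and 0.38 without animal 80. In non-diabetic *Hif1a*+/- against *Wt* it was *Pdia4*, 0.17 on the log2 scale, also with an adjusted p of 1.0 by edgeR. This was 0.03 without animal 44 and 0.32 without animal 14. No member separated the groups in these comparisons, where 5.54% and 4.81% of all genes did. In diabetes-exposed *Hif1a*+/- against *Wt* it was *Hsp90aa1*, 139 ± 37.8 against 226 ± 121 CPM (SD, n = 3). Its log2 fold change was -0.71 ± 0.38 (SE) with an edgeR adjusted p of 0.862, and without animal 50 it was -0.30. There too no member separated the groups, against 7.94% of all genes. The interaction of genotype and pregnancy had its smallest p for *Atf4* (-0.39 ± 0.33 on the log2 scale, SE, edgeR adjusted p of 0.998), and the genotype average for *Dnajb1* (-0.49 on the log2 scale). Leaving out animal 50 gave -0.08 for *Atf4*, and leaving out animal 42 gave -0.27 for *Dnajb1*. In the test of any difference among the 4 groups *Dnajb1* had an edgeR adjusted p of 0.851.

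For *Hspa1a* and *Hspa1b* the standard errors were the largest of all members. In diabetes-exposed *Hif1a*+/- against non-diabetic *Wt*, *Hspa1b* was 2.75 ± 2.097 against 13.9 ± 15.04 CPM (SD, n = 3), a log2 fold change of -2.26 ± 1.24 (SE) with an edgeR adjusted p of 0.595. Over the 5 cytosolic members the median log2 fold change in this comparison was -1.13, over the 5 ER members it was 0.08, and over all tested genes it was 0.00. The cytosolic median is the value of *Dnajb1* itself, which was -0.68 without animal 42. The 5 ran from -0.27 for *Hsph1* to -2.26 for *Hspa1b*. Since they rose and fell together over the animals, they are not 5 independent readings.

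A list of 30 other cytosolic and mitochondrial chaperones and co-chaperones showed how far the shared order of animals reached. Of the 30, 21 had r above 0.5 with the cytosolic mean, against 16.8% of all tested genes, and the median r was 0.73. With the ER mean 22 of the 30 had r above 0.5, against 12.2% of all tested genes, and the median r was 0.76. Highest with the cytosolic mean was *Dnaja1*, an HSP40 (r = 0.98, 40.0 to 138 CPM). Next came *Chordc1*, an HSP90 co-chaperone (r = 0.92, 34.4 to 78.3 CPM). *Stip1*, which bridges HSP70 and HSP90, followed (r = 0.92, 105 to 184 CPM). With the ER mean these genes had r = 0.82, 0.90 and 0.89. None of the 30 was called by edgeR, DESeq2 or limma-voom in any contrast, and 1 had an unadjusted p under 0.05 in 1 of them, the mitochondrial chaperonin *Hspe1* in the pregnancy average. The smallest p for any group difference were those of *Hspe1* (adjusted p = 0.906 by edgeR), of *Cryab*, the abundant small heat shock protein of muscle (2253 to 3010 CPM, adjusted p = 0.913), and of *Dnaja4* (64.5 to 110 CPM, adjusted p = 0.925).

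Among 26 other UPR genes, 25 were tested and 17 of them had r above 0.5 with the ER mean, against 12.2% of all genes. The closest were *Hyou1*, an ER HSP110 (r = 0.93, 43.0 to 76.7 CPM), *Creld2* (r = 0.91, 10.9 to 25.0 CPM) and *Dnajc3*, the inhibitor of PERK also called p58IPK (r = 0.91, 50.2 to 81.3 CPM). Averaged over genotypes, 9 of 25 were higher after diabetic pregnancy at an unadjusted p under 0.05 and none was lower, where 5.47% of all genes were higher. None passed in edgeR or limma-voom, and 3 passed in DESeq2, which called 203 genes in this contrast. In the same contrast 3 of 4 macrophage markers (median log2 fold change 0.49) and 2 of 5 adventitial and epicardial markers (median 0.77) were higher at an unadjusted p under 0.05. At the same threshold 2 of 4 mural cell markers (median -0.04) and 1 of 4 endothelial markers (median -0.06) were lower. The part of these markers in the UPR result was not tested.

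The 3 genes were *Herpud1*, *Calr* and *Pdia6*. *Herpud1*, which serves ER-associated degradation, had means of 212, 327, 214 and 283 CPM in non-diabetic *Wt*, diabetes-exposed *Wt*, non-diabetic *Hif1a*+/- and diabetes-exposed *Hif1a*+/-. Its log2 fold change was 0.52 in the pregnancy average, with an adjusted p of 0.154 by edgeR and of 0.00229 by DESeq2. *Calr*, the ER lectin chaperone calreticulin, had means of 301, 377, 318 and 432 CPM (edgeR adjusted p of 0.275, DESeq2 0.0452), and the disulphide isomerase *Pdia6* had 86.0, 105, 91.6 and 119 CPM (edgeR adjusted p of 0.283, DESeq2 0.0996). *Herpud1* had r = -0.18 with the cytosolic mean and 0.19 with the ER mean. *Calr* had r = 0.11 and 0.59, and *Pdia6* had r = 0.19 and 0.62, in the same order.

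Of 22 target genes of ATF4 and CHOP, 21 were tested. Their median r was 0.05 with the cytosolic and 0.18 with the ER mean, and 4 had r above 0.5 with the ER mean. The 3 closest were *Cebpg* (r = 0.86 with the ER mean), the stress-induced factor *Atf3* (r = 0.79, and 0.93 with the cytosolic mean, 4.69 to 21.9 CPM) and *Ppp1r15a*, which encodes the eIF2alpha phosphatase subunit GADD34 (r = 0.69). *Chac1*, which degrades glutathione, had r = -0.64 with the cytosolic mean and means of 2.74, 5.86, 2.72 and 6.26 CPM in the 4 groups in the order above. The smallest p for any group difference were those of *Atf5* (edgeR adjusted p of 0.718), *Ddit4* (0.72) and *Chac1* (0.824). DESeq2 called *Atf5* in the pregnancy average (adjusted p = 0.0664), where it called 203 genes in all. limma-voom called *Chac1* in diabetes-exposed against non-diabetic *Hif1a*+/- (adjusted p = 0.0514). In that contrast it called 937 of the 14706 genes tested.

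**Figure D5:**
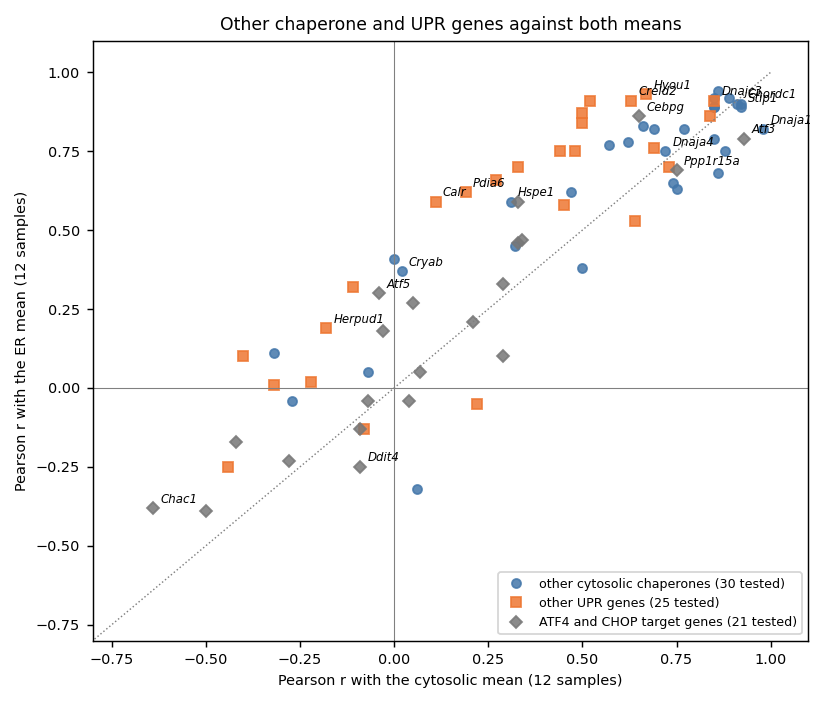
Pearson r over the 12 samples of each gene of 3 lists with the mean of the 5 ER genes (vertical) against its r with the mean of the 5 cytosolic genes (horizontal), with the genes named in the text labelled and the line of equal r dotted. Of the other cytosolic chaperones (circles) 21 of 30 lie right of 0.5 and 22 of 30 lie above 0.5. Of the UPR genes (squares) 17 of 25 lie above 0.5. Target genes of ATF4 and CHOP (diamonds) are spread from -0.64 to 0.93 along the horizontal axis.

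Immediate early genes and genes whose RNA depends on temperature were read in the same samples. Of 6 immediate early genes, 2 had r above 0.5 with the cytosolic mean, *Jun* (r = 0.70, 48.5 to 79.7 CPM) and *Fos* (r = 0.69, 0.880 to 5.04 CPM), and *Egr1* had r = 0.48 (9.60 to 21.5 CPM). By p for any group difference the first were *Fos*, *Egr1* and *Junb*, with edgeR adjusted p of 0.915, 0.938 and 0.976. Of 4 genes whose RNA depends on temperature, none had r above 0.5. *Rbm3*, which rises in the cold, had r = -0.16 with the cytosolic and -0.49 with the ER mean, *Clk4* had r = -0.14, and *Clk1*, a kinase whose RNA processing depends on temperature, had r = 0.37. The fourth gene, the cold-induced *Cirbp*, named after its values were seen, had r = -0.45 with the cytosolic and -0.66 with the ER mean (33.2 to 90.7 CPM). *Clk1* was lowest in diabetes-exposed *Hif1a*+/-, with means of 90.4, 86.8, 79.0 and 63.3 CPM in the 4 groups. edgeR gave it an adjusted p of 0.377 for any difference, and DESeq2 gave 0.0132. For *Rbm3* and *Clk4* the edgeR adjusted p was 0.898 and 0.941.

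Over all tested genes, those most like the cytosolic mean were *Dnaja1* (r = 0.981, rho = 0.90), *Edrf1* (0.972), *Siah2* (0.957), *Cggbp1* (0.955), *Erlin1* (0.953), *Bpnt1* (0.944), *Ubqln1* (0.941), *Ppp4r2* (0.935), *Zbtb26* (0.933) and *Xpo1* (0.932). Of these, *Dnaja1* (3.45-fold), *Siah2* (2.74-fold) and *Zbtb26* (2.5-fold) changed most from the lowest to the highest sample, and the rest changed 1.34-fold to 1.83-fold. *Ubqln1* carries ubiquitinated proteins to the proteasome, *Siah2* is a ubiquitin ligase and *Xpo1* exports proteins from the nucleus. The most unlike were *Zfp784* (r = -0.967), *Tceanc* (-0.935), *Tmem175* (-0.915), *Spaar* (-0.906) and *Pik3ip1* (-0.903).

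Most like the ER mean were *Fbxo46* (r = 0.947), *Phospho2* (0.94), *Hspa8* (0.935), *Hyou1* (0.932), *Serpinh1* (0.929), *Tmem33* (0.926), *Slc31a1* (0.925), *Ywhag* (0.925), *Ptges3* (0.925) and *St13* (0.919). Among these were chaperones of both compartments, *Hspa8* being the constitutive cytosolic HSP70 (518 to 1285 CPM) and *Serpinh1* the collagen chaperone HSP47 of the ER (187 to 463 CPM). The most unlike were *Dixdc1* (r = -0.936), *Cyp4f16* (-0.92), *Rabep2* (-0.91), *Gm9828* (-0.907) and *Cers4* (-0.904).

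Several measures moved with the cytosolic mean, and their part in it was not tested. The first principal component of all tested genes, which held 29.3% of the variance, had r = 0.80 with it (rho = 0.89, and r = 0.75 without the 2 farthest samples). Total count (r = -0.06) and the percentage of reads aligned to several places (r = 0.22) did not follow it. The summed level of 4 mural cell markers had r = 0.67 (0.52 without the 2 farthest). Taken singly, 2 of these 4 had r above 0.5 and 1 had r below -0.5. The sum of 4 adipocyte markers, 2.06 to 7.70 CPM, had r = -0.59 (-0.58 without the 2 farthest). That of 5 fibroblast markers had r = -0.55 (-0.42 without them) and that of 4 macrophage markers -0.52 (-0.30 without them). Singly, 1 adipocyte, 3 fibroblast and 1 macrophage marker had r below -0.5, and 0 had r above 0.5. In diabetes-exposed *Hif1a*+/-, the group with no high animal, macrophage markers summed to 164 to 269 CPM against 88.2 to 199 CPM in the other groups, and 5 adventitial and epicardial markers to 143 to 331 CPM against 79.6 to 120 CPM. The 6 cardiomyocyte markers that define the tissue summed to 68200 to 78410 CPM in all samples, with r = 0.38 (0.14 without the 2 farthest). With the ER mean this sum had r = 0.71 (rho = 0.75, and r = 0.46 without the 2 farthest). Taken singly, only 1 of the 6 markers had r above 0.5 with the ER mean, and their median r was 0.31. The first principal component had r = 0.57 with the ER mean and the summed adipocyte markers -0.55. The part of these measures in the ER mean was not tested either. In bulk tissue, fewer cells of a type and less RNA per cell cannot be told apart.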

How the data were processed

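The data were 12 3′-seq libraries from LV RNA, single reads of 75 bases. Per the labels and methods, the authors trimmed reads with Trimmomatic, removed ribosomal and mitochondrial reads, aligned to GRCm38 with STAR (2.5.2b) and deposited raw counts per gene from HTSeq. Between 20.2% and 24.2% of the reads in these files were on no gene (multimapped, ambiguous or without a feature) and were left out. The normalized counts they deposited were not used. Symbols and coordinates came from GENCODE M21 (46488 of 46983 genes matched), and promoter windows from RefSeq (GRCm38.p6, 9 of 10 genes).

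Counts were tested with edgeR 4.0.16 (R 4.3.3, TMM, filterByExpr, quasi-likelihood, 12 samples in 1 fit of 4 group means), which was tested on simulated data, and adjusted by Benjamini-Hochberg. Levels are TMM CPM, with 1 added before log2. Replicates of every group differed by more than counting error, with a chi-square of 5.54 to 47.3 for each gene. Precision was set by the spread between animals (common biological coefficient of variation 13.7%). Alternatives were DESeq2 1.42.0, limma-voom 3.58.1, other normalization, filters, threshold and pseudocount, and leaving out samples.

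Members and lists were chosen with earlier results of these data known. All members are named; tests are printed for the member with the smallest p in each comparison and for those with an unadjusted p under 0.05 (*Hspa1b* was added after its values were seen). From each list the 3 genes with the smallest p and the 3 with the highest r are named, and the 10 genes most like and 5 most unlike each mean.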

Additional observations from a re-analysis of the deposited data

How the results depend on the processing

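No member was called at a threshold of 0.05, with DESeq2 size factors, with a minimum of 10 counts in every sample, by DESeq2, by limma-voom or when any sample was left out (range 0 to 0 in every contrast). *Hspa1a* was not tested with that minimum, since animal 80 had 2 counts. The exception was edgeR without a filter on low counts. It called 3 members in diabetes-exposed *Hif1a*+/- against non-diabetic *Wt* (*Dnajb1*, *Hspa1b* and *Hspa1a*), and 445 of the 27093 genes with a count above 0. For the same group against non-diabetic *Hif1a*+/- it called 2 members and 592 genes. Against diabetes-exposed *Wt* it called 4 members and 220 genes. In the pregnancy average it called 2 members and 593 genes, and in the genotype average 4 members and 77 genes. For any difference among the groups it called 4 members and 689 genes, and only cytosolic members were called throughout. Its fold changes were nearly those given (*Dnajb1* -1.11 against non-diabetic *Wt*, with an adjusted p of 2.69e-07, against 0.206 to 0.978 over the other settings), and the cause was not tested. Over all genes that fit called 33 to 689 genes by contrast, DESeq2 0 to 203 and limma-voom 0 to 937, against 0 in edgeR as reported.

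Leaving out 1 sample moved the log2 fold change of *Dnajb1* between -1.36 and -0.68 against non-diabetic *Wt* and between -1.17 and -0.27 against non-diabetic *Hif1a*+/-. The median r of cytosolic pairs stayed between 0.87 and 0.93 with any 1 sample left out, that of ER pairs between 0.74 and 0.84, and that across the sets between 0.63 and 0.79. Leaving out animals 25 and 72 together, chosen after seeing the data, gave 0.88, 0.76 and 0.69, and leaving out the diabetes-exposed *Hif1a*+/- group gave 0.89, 0.88 and 0.82. A pseudocount of 0.1 and DESeq2 size factors changed none of these by more than 0.01. Of the 8 log2 fold changes recomputed under every setting (*Dnajb1* in 4 contrasts, *Hspa5*, *Pdia4*, *Hsp90aa1* and *Atf4* in 1 each), none reversed. Those of *Hspa1b* and the list genes were not recomputed so. No paired analysis was possible because the sample labels used here give no litter or other link between animals. Littermates among the samples, if any, were not accounted for. The SE of 1.24 on the log2 scale for *Hspa1b*, with 3 animals a group, limits what could be seen for it.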
